A study of Mus musculus with 21 samples.

Results

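Potassium channels set the resting membrane potential of a cell and carry the potassium current that returns it to rest. The Kcn genes of the mouse encode their pore-forming subunits and most of the auxiliary subunits bound to them. All protein-coding genes whose symbol begins with Kcn were taken from the 43432 genes counted in 21 libraries. There were 94 of them, and 65 reached a mean of at least 1 CPM in 1 or more of 6 sample groups and are described here. CPM is a gene's count scaled to a common library total, here with the TMM method.

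Poly(A) RNA was sequenced from sorted tuft cells, rare epithelial sensory cells, of 5 tissues. All mice were naive C57BL6 animals homozygous for the Il25 reporter allele (Flare25/Flare25), the non-tuft reference included. Tuft libraries came from live (DAPI-), CD45-, EPCAM+, reporter-positive cells of small intestine (n = 3), colon (n = 4), gall bladder (n = 3), thymus (n = 4) and trachea (n = 4). Reporter-negative EPCAM+ small intestine epithelium was the reference (n = 3). Each library came from 1 male mouse of 12 weeks, except in trachea. The trachea libraries were pools of 4 mice each, male and 12 or 16 weeks old in pools 1 and 2, female and 16 or 14 weeks old in pools 3 and 4.

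Library totals ran from 25739248 to 73574745 counts. Sorted cells ran from 130 to 453 in trachea, 1350 to 2700 in thymus and gall bladder, and 13500 to 57000 in the intestinal groups. The tuft gene Pou2f3 was at 168.6 to 1315 CPM in tuft libraries and at 11.35 to 14.67 CPM in the reference. The taste cascade channel gene Trpm5 was at 967.1 to 5868 and at 29.36 to 69.22 CPM. Thymus libraries held counts for 20453 to 23179 genes and trachea libraries for 14880 to 17824. Non-tuft cells were sorted from the small intestine alone, and tissue, dissociation, cell number and pooling cannot be told apart.

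Channels are built from pore subunits that share a selectivity filter, the short stretch of protein that lets potassium pass and holds back sodium. Voltage-gated subunits open on depolarisation, inward rectifiers pass current near rest, tandem-pore (Kcnk) channels carry background leak, and Kcnn, Kcnm, Kcnt and Kcnu channels respond to calcium, sodium or pH. In intestinal epithelium Kcnq1 with Kcne3, and Kcnn4, are known for returning potassium across the basolateral membrane during chloride secretion. Tuft cells signal through calcium release and Trpm5, a depolarising cation channel.

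The filter was looked for in the longest complete coding sequence of each described gene (GENCODE M21, GRCm38), as codons for serine or threonine, then valine, isoleucine, leucine or threonine, then glycine, tyrosine or phenylalanine, and glycine. It was found in all 53 described pore-forming genes and in 0 of the 12 auxiliary genes, a description of the classes and not of their expression. Of the 8 described tandem-pore genes, 5 held it at both pores by this pattern. The lines below show 45 coding bases around the first match, 5′ to 3′ on the coding strand, with the 15 filter bases in capitals, for genes on which the results turn.

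Kcnq1: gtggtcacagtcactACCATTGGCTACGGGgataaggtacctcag
Kcnd3: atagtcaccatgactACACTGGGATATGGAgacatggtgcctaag
Kcnh6: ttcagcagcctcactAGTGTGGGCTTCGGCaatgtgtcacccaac
Kcnj15: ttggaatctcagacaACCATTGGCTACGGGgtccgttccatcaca
Kcnj5: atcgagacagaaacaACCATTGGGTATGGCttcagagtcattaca
Kcnk1: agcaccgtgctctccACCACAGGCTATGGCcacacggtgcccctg
Kcnk5: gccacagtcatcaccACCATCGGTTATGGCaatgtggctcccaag
Kcnn4: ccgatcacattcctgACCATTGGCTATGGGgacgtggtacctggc
Kcnt2: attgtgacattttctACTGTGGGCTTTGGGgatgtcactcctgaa

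The stretch lies within 1 exon in Kcnh6 (chr11:106019061-106019105), Kcnj15 (chr16:95295965-95296009), Kcnj5 (chr9:32322544-32322588), Kcnn4 (chr7:24379183-24379227) and Kcnt2 (chr1:140425263-140425307). It spans an intron in Kcnq1, Kcnd3, Kcnk1 and Kcnk5.

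By class, 25 of 40 voltage-gated, 13 of 15 inward rectifier, 8 of 14 tandem-pore, 7 of 8 calcium- or sodium-activated and 12 of 17 auxiliary genes were described. Of the other 29 genes, Kcnk15 and Kcnc2 had 0 counts in every library. The genes just under the level for description were Kcna7 at 0.861 CPM, Kcnk4 at 0.635 CPM and Kcnip4 at 0.552 CPM, each in thymus. Just above it were Kcnab3 at 1.05 CPM, Kcnmb2 at 1.22 CPM and Kcnj6 at 1.315 CPM. A mean of 1 CPM or more was reached by 56 genes in thymus, 31 in trachea, 31 in the non-tuft reference, 27 in colon, 25 in small intestine tuft cells and 24 in gall bladder. Thymus was the only group at that level for 16 genes, among them Kcnh1, Kcnip3, Kcna1 and Kcnc4, and the reference for 3, trachea for 3 and gall bladder for 1. Thymus libraries also held counts for more genes of any kind (20453 to 23179) than the other tuft libraries (at most 20294). The share of all genes at 1 CPM was not taken. Whether counting used strand is not stated, so reads cannot be told apart where exons overlap a gene on the opposite strand, as in Kcnd3, Kcnq1, Kcnk3, Kcnmb4, Kcnt2, Kcnj3, Kcnj13, Kcnh3 and Kcnh7, and Kcnab2 overlaps a gene on its own strand. The labels give 1 mouse or 1 pool a library, and p-values measure the spread between these libraries.

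**Figure D1:**
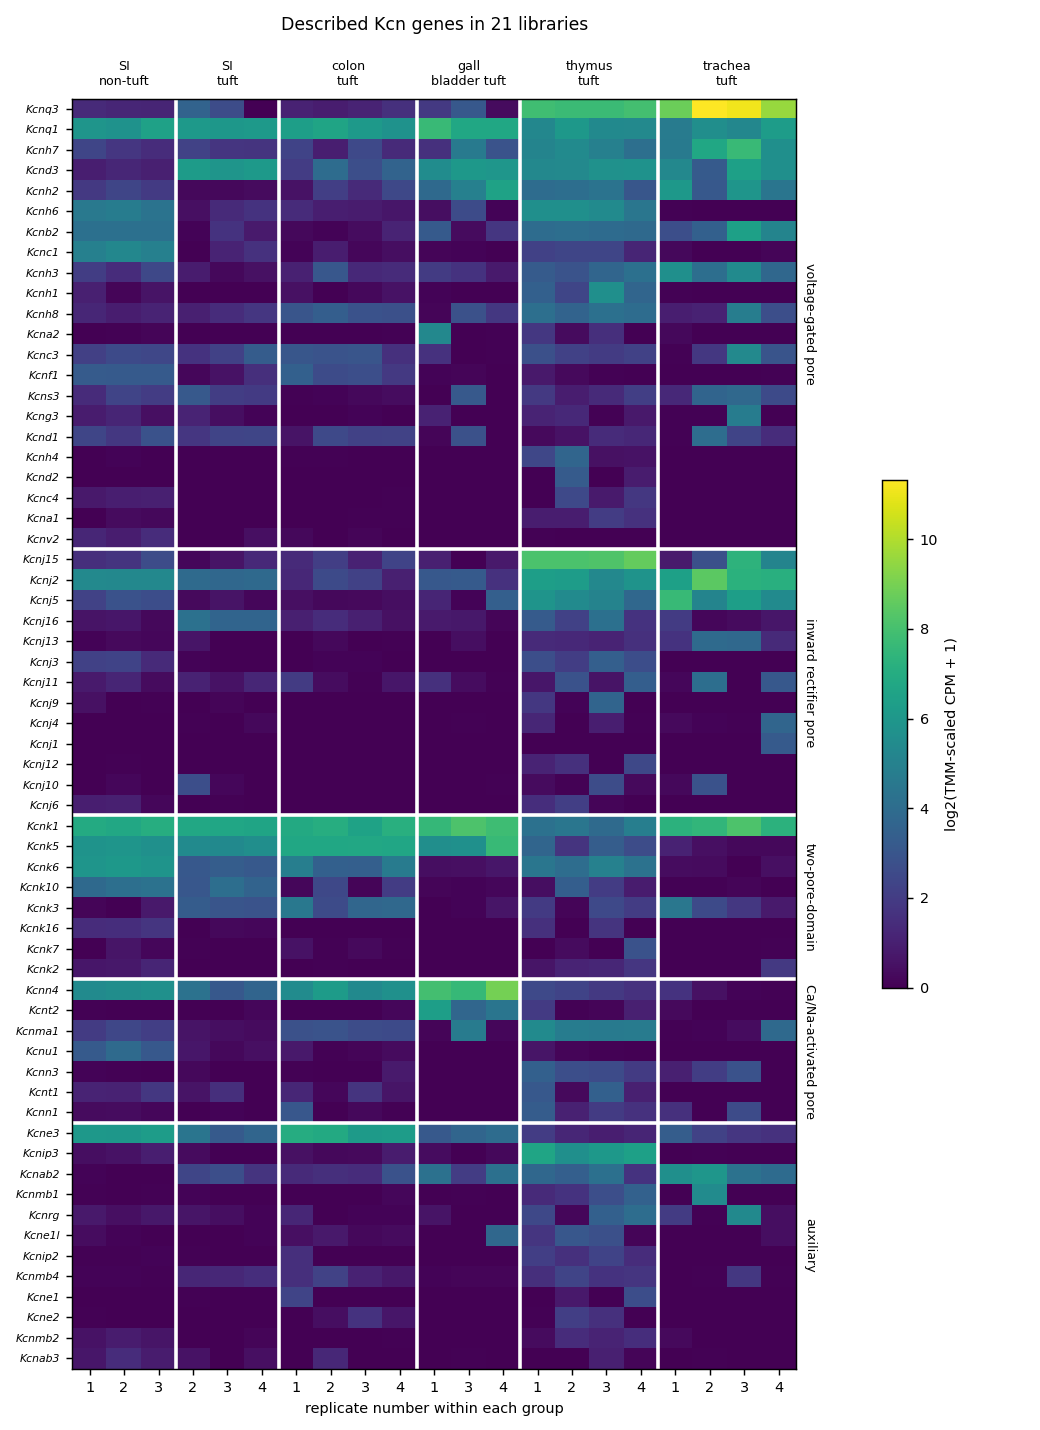
Level of 62 of the 65 described Kcn genes (rows, grouped by class) in each of the 21 libraries (columns, grouped by tissue and numbered by replicate), as log2 of TMM-scaled CPM + 1. The Kcnq3 row is brightest in trachea and bright in thymus, and thymus holds the most genes above the dark background.

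Levels of different genes were compared per kilobase of exon. Kcnk1, a tandem-pore leak channel subunit, came first in the reference at 54.5 CPM per kilobase, and also in small intestine tuft at 45.9 and in gall bladder tuft at 104.7. In colon Kcne3 and Kcnk1 lay close together at 55.2 and 53.8 CPM per kilobase. Thymus was led by the inward rectifier gene Kcnj15 at 49.7 CPM per kilobase, which made up 23.4% of the summed level of all Kcn genes. Trachea was led by Kcnq3 at 101.6 CPM per kilobase, 29.0% of its sum, with Kcnk1 second at 86.3. By group mean, a tandem-pore gene thus led in small intestine and gall bladder. An inward rectifier gene led in thymus and a voltage-gated gene in trachea. The trachea order differed between libraries. In trachea libraries 1 and 4, Kcnk1 (154.3 and 156.2 CPM, 2235 exon bases) lay above Kcnq3 (443.1 and 772.3 CPM, 14708 exon bases) per kilobase.

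**Figure D2:**
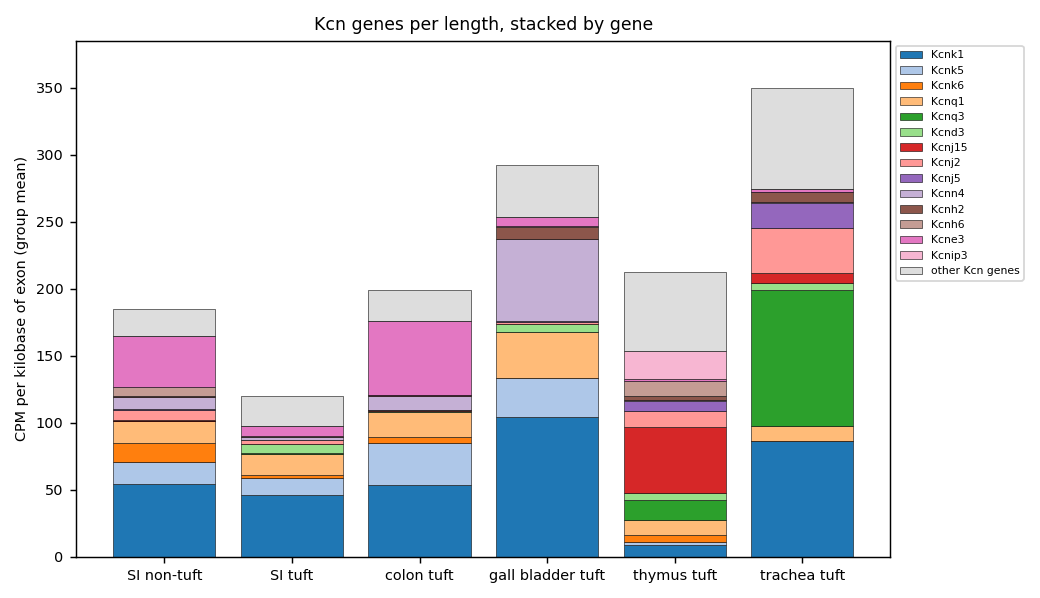
Group means of CPM per kilobase of exon, stacked by gene, for the 6 groups; named genes have their own colour and the remaining Kcn genes are in grey. Kcnk1 takes a large part of every bar except thymus, Kcnn4 stands out in gall bladder and Kcnq3 in trachea.

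In the small intestine, 43 of the 65 genes had enough counts to be tested in tuft against non-tuft cells. Calls required a change of 1 or more on the log2 scale together with an adjusted p below 0.05. Higher in tuft cells were 7 genes, 16.3% of those tested, against 13.0% of all genes tested, and lower were 18, 41.9% against 13.9%. A gene that passed the count filter through 1 group alone had to be low in the other, as Kcnc4 was in tuft cells. These shares are therefore a description. With all 21 libraries in 1 fit, 4 were higher and 9 lower. Calls higher were made in 3 voltage-gated, 1 inward rectifier, 1 tandem-pore and 2 auxiliary genes. Calls lower were made in 7, 3, 3 and 2 of these classes and in 3 of the calcium- or sodium-activated class. In a bulk sample, fewer cells of a type and less RNA per cell cannot be told apart.

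Kcnd3 encodes a pore subunit of the fast transient A-type current (GRCm38 chromosome 3, 105452330 to 105674002). It was at 73.6, 59.4 and 70.0 CPM in tuft and at 0.952, 1.33 and 1.01 CPM in non-tuft libraries. All tuft libraries lay far above all non-tuft libraries. The log2 fold change was 6.01 ± 0.21 (SE derived from the F statistic, edgeR quasi-likelihood test, Benjamini-Hochberg adjusted p = 3.17e-08). The antisense gene Kcnd3os overlaps its exons.

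Kcnj16, an inward rectifier subunit that works in pairs with another Kir subunit, was at 17.5, 11.8 and 11.6 CPM in tuft and at 0.503, 0.592 and 0.175 CPM in non-tuft cells. The groups did not overlap, and the log2 fold change was 5.08 ± 0.46 (adjusted p = 1.61e-05).

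Kcnk3, an acid-sensitive leak channel gene, was at 6.50 to 8.91 CPM in tuft and 0.020 to 0.685 CPM in non-tuft cells. Its log2 fold change was 4.74 ± 0.83, and the call was lost when the spread was estimated from all 21 libraries (adjusted p = 0.0765). Also called higher were the auxiliary genes Kcnab2 (2.27 to 5.60 against 0.015 to 0.090 CPM) and Kcnmb4 (1.35 to 1.76 against 0.058 to 0.090 CPM).

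Kcnab2 encodes a cytoplasmic beta subunit of voltage-gated channels. Among 47 described genes with a RefSeq promoter window (GRCm38.p6), it alone held the octamer ATGCAAAT, known as a motif of POU domain factors, on either strand in the 250 bases before the start. These 47 genes had 63 windows between them. Of all 32851 windows, 1.6% held the octamer, so a match among 63 windows does not set Kcnab2 apart from the background. That match is a description of these letters and not of binding. The window lies on chromosome 4 from 152477550 to 152477799, on the minus strand, and the octamer, here as its reverse complement in capitals, begins at base -74 relative to the start.

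Kcnab2: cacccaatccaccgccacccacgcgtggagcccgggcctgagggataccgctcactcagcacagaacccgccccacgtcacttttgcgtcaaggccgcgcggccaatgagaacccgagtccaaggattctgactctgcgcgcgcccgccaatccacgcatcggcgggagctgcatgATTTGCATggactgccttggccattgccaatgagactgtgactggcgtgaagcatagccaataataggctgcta

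The genes that were lower included Kcnc1, a fast delayed rectifier, at 0.023, 1.18 and 2.10 CPM in tuft and 29.5, 36.9 and 29.6 CPM in non-tuft cells. Kcnh6, of the erg family, was at 0.384, 1.53 and 2.13 against 22.6, 26.3 and 19.2 CPM. Kcnb2 was at 0.090, 2.20 and 0.782 against 17.1, 17.1 and 17.4 CPM. None of these groups overlapped. Log2 fold changes were -4.80 ± 0.76, -4.01 ± 0.50 and -4.01 ± 0.72.

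The leak channel gene Kcnk6 was at 7.74 to 9.20 CPM in tuft and 57.3 to 64.9 CPM in non-tuft cells (log2 fold change -2.80 ± 0.16, adjusted p = 6.31e-07). Kcne3, the partner of Kcnq1, was at 8.23 to 20.0 against 63.9 to 76.1 CPM (-2.29 ± 0.28, adjusted p = 0.000115). Kcnn4, the intermediate-conductance calcium-activated channel, was at 7.68 to 18.5 against 42.0 to 51.1 CPM. The Kcnq1 pore gene was at 63.8 to 68.3 CPM in tuft and 54.1 to 87.4 CPM in non-tuft cells and was not called (log2 fold change 0.05 ± 0.18). Kcne3 and Kcnn4 were thus called lower in tuft cells, and Kcnq1 overlapped between the groups.

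Kcnu1, the pH-sensitive channel known from sperm, was at 0.200 to 0.609 against 7.58 to 13.9 CPM, and Kcnj5 at 0.147 to 0.500 against 3.65 to 6.31 CPM. Kcnf1, a silent subunit that modifies other voltage-gated channels, was at 0.158 to 1.91 against 8.35 to 8.46 CPM. With all 21 libraries in 1 fit, the calls of Kcnu1, Kcnb2 and Kcnf1 were lost (adjusted p = 0.105, 0.0534 and 0.199). Kcnc4 had 0 counts in all 3 tuft libraries and 0.701 to 0.977 CPM in the reference, so its fitted fold change is no bound. Kcnk1 (95.9 to 108.5 against 111.4 to 131.9 CPM) and Kcnk5 (40.8 to 47.5 against 50.5 to 58.5 CPM) were not called.

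Markers of several other epithelial cell types were lower in tuft cells, and those of enterocytes were not. All 8 enteroendocrine, 6 goblet and 4 Paneth cell markers were lower in tuft cells, with summed levels of 488.7 to 1060 against 9354 to 13240 CPM for enteroendocrine, 2025 to 2513 against 100800 to 110800 CPM for goblet and 90.8 to 360.8 against 7590 to 9047 CPM for Paneth markers. All 5 proliferation markers were also lower, with sums of 264.1 to 396.8 against 1087 to 1380 CPM. Of 6 enterocyte markers 1 was called higher in tuft cells, Fabp1 (4825 to 6402 against 955.7 to 1371 CPM), and 0 lower, with sums of 19580 to 25140 against 10270 to 11640 CPM. None of these markers was at 0 in a tuft library: Chga was at 30.5 to 43.0 CPM there. Their part in the channel gene calls was not tested.

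**Figure D3:**
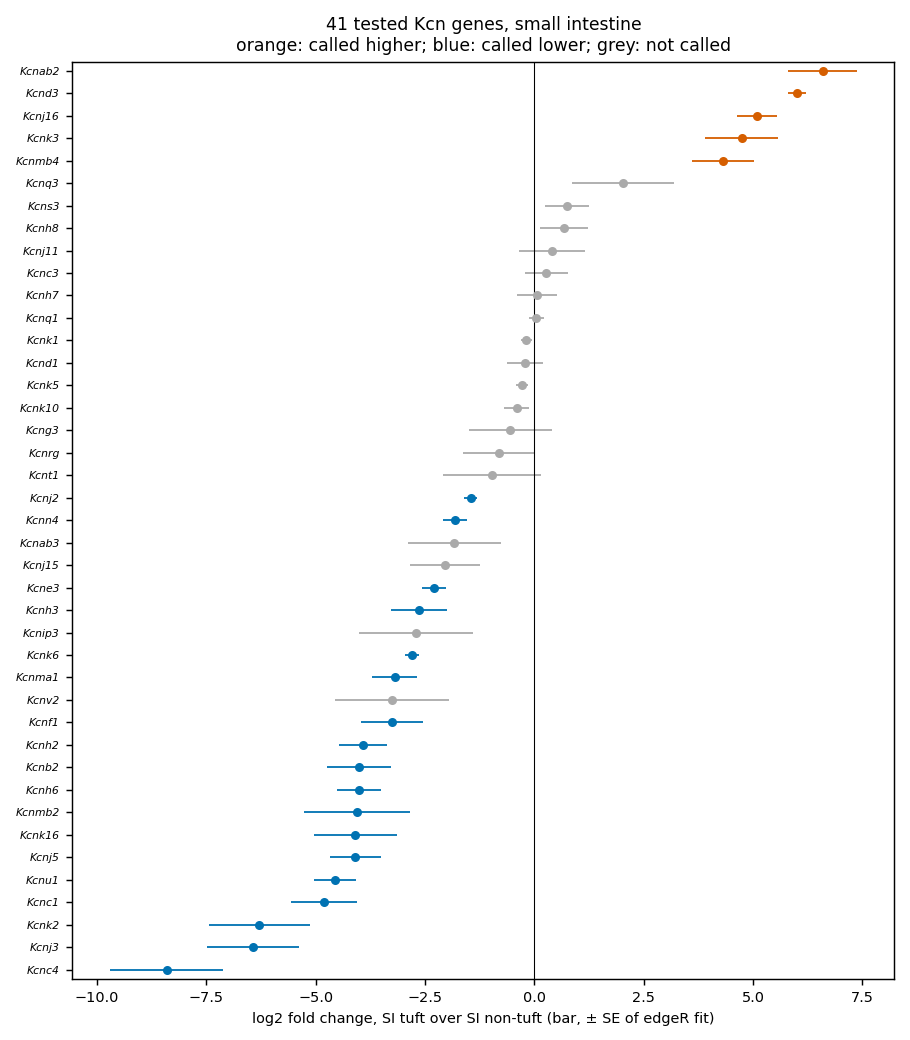
Log2 fold change of small intestine tuft over non-tuft cells for 41 of the 43 tested Kcn genes. Bars show a standard error derived from the edgeR F statistic. Orange genes were called higher, blue lower and grey not called. Kcnab2 and Kcnd3 lie at the top, and the lowest gene, Kcnc4, had no count in the tuft libraries, so its position depends on the fit's prior count.

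Among the 5 tuft tissues, 59 of the 65 genes were tested and 49 differed between tissues, 83.1% against 56.7% of all genes tested. Between pairs of tissues the calls in either direction were 6 of 59 for small intestine and colon (8.36% of all genes), 10 for small intestine and gall bladder (14.8%), 25 for small intestine and thymus (25.7%), 21 for small intestine and trachea (27.8%) and 11 for colon and gall bladder (18.2%). They were 28 for colon and thymus (25.6%), 30 for colon and trachea (27.1%), 34 for gall bladder and thymus (30.6%), 17 for gall bladder and trachea (23.8%) and 23 for thymus and trachea (27.9%). A gene that passed the count filter through 1 tissue had to be low elsewhere, so this share is a description. The group means of Kcnk1 and Kcnq1 reached 10 CPM in all 5 tissues. Kcnd3 had means of 67.7 ± 7.41 CPM in small intestine, 56.5 ± 10.6 in gall bladder, 45.7 ± 8.31 in thymus, 45.4 ± 32.4 in trachea and 8.63 ± 5.37 in colon (SD, n = 3 or 4). Among neighbours in that order only trachea and colon were called apart (2.45 ± 0.57 on the log2 scale, adjusted p = 0.00313), and trachea library 2, at 8.26 CPM, lay within the colon range.

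Kcnq1 was at 140 ± 56.6 CPM in gall bladder, 75.8 ± 19.1 in colon, 66.1 ± 2.27 in small intestine, 46.3 ± 21.2 in trachea and 45.7 ± 13.1 in thymus, with no neighbours in that order called. Kcnk1 was at 234 ± 51.3 CPM in gall bladder, 193 ± 63.6 in trachea, 120 ± 20.7 in colon, 103 ± 6.37 in small intestine and 20.2 ± 5.79 in thymus. Only the step from small intestine to thymus was called (2.21 ± 0.30 on the log2 scale, adjusted p = 2.29e-05).

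**Figure D4:**
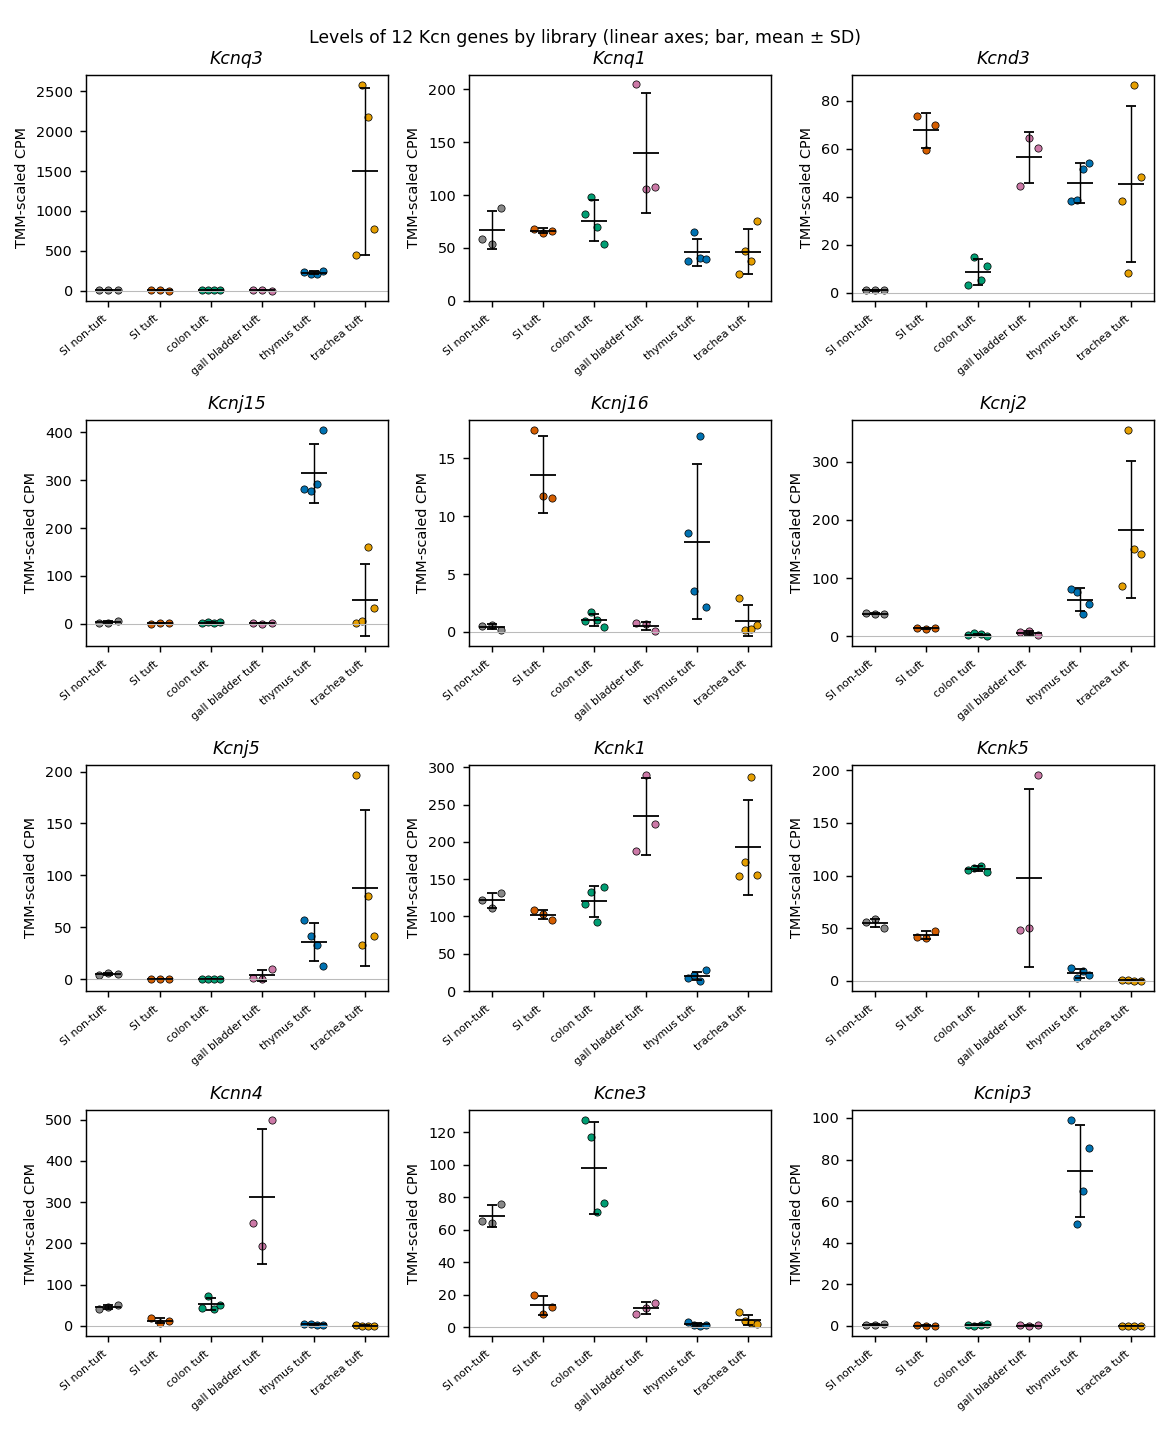
TMM-scaled CPM of 12 Kcn genes in each library (points) with the mean and SD of each group (bars), on linear axes. Kcnq3 is high in trachea with a wide spread, Kcnj15 and Kcnip3 are high in thymus, Kcnn4 in gall bladder and Kcne3 in colon and the non-tuft reference.

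The next contrasts took 1 tissue over the averaged level of the 4 others, first in trachea tuft cells. Higher were 17 genes, 28.8% of those tested against 17.3% of all genes, and lower were 11, 18.6% against 13.7%. All 4 airway secretory markers were called higher in trachea, with sums of 25370 to 117800 CPM against at most 643.5 CPM in the other tuft tissues. All 3 airway basal markers were called higher too, among them Krt15 (115.1 to 751 CPM), although their sums, 207.7 to 894.6 CPM, overlapped those of thymus (691.3 to 823.3 CPM). Their part in the calls was not tested. Kcnq3, a subunit of the muscarine-sensitive M current of neurons (chromosome 15, 65986387 to 66286642), was at 443.1, 2582, 2179 and 772.3 CPM. In thymus it was at 234.1, 207.7, 210.4 and 244 CPM. Every trachea library lay above every thymus library, although the trachea libraries differed among themselves by more than the thymus libraries did, and trachea differed from thymus by 2.61 ± 0.93 (adjusted p = 0.0415).

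In small intestine tuft libraries 2, 3 and 4 Kcnq3 was at 11.1, 5.20 and 0 CPM. The airway secretory gene Scgb1a1 was at 67.7, 34.0 and 0.245 CPM in the same 3 libraries, in the same order. In the gall bladder libraries Kcnq3 was at 2.74, 7.59 and 0.261 CPM and Scgb1a1 at 249.6, 0.322 and 0.732 CPM, in another order. Scgb1a1 was at 8231 to 54940 CPM in trachea. The part of airway RNA in the small intestine values was not tested.

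Kcnj2, which encodes the strong inward rectifier Kir2.1, was at 87.0, 354.5, 149.3 and 141.3 CPM in trachea and at no more than 81.3 CPM in any other tuft library. Thymus was next, at 81.3, 76.0, 38.2 and 55.8 CPM. Small intestine, gall bladder and colon had lower Kcnj2 means of 13.6, 6.00 and 2.69 CPM. Over the averaged level of these 4 tissues the Kcnj2 log2 fold change was 4.05 ± 0.37 (adjusted p = 1.16e-07), and the step to thymus alone is not given. Kcnj5, a G protein-gated rectifier subunit, was at 196.6, 33.3, 79.8 and 41.9 CPM in trachea and 57.1, 41.4, 32.8 and 12.8 CPM in thymus, and these neighbours overlapped and were not called (1.15 ± 0.84, adjusted p = 0.33). Kcnj3, its usual partner in the heart, was at 3.13 to 9.74 CPM in thymus, and in trachea at 0 in 3 libraries and 0.031 CPM in the other. The Kir7.1 gene Kcnj13 was at 2.16, 14.0, 13.1 and 1.52 CPM in trachea, and its exons overlap Gigyf2 on the opposite strand, at 67.3, 69.7, 181.0 and 109.7 CPM.

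Low in trachea were Kcnk5, a leak channel of secretory and renal epithelia, at 1.15, 0.361, 0.186 and 0.176 CPM, and Kcnn4 at 2.16, 0.408, 0.093 and 0.035 CPM. Thymus, the next tissue up, lay above trachea in Kcnk5 by 4.07 ± 0.65 on the log2 scale (adjusted p = 0.000143). Kcnh6 had counts in trachea library 1 alone (0.056 CPM) and was lower than in the other tissues (adjusted p = 0.000207), with no fold given at so few counts. Kcnmb1, a BK beta subunit, was called higher on library 2 alone, at 43.9 CPM against 0.028, 0 and 0 CPM, and without it the log2 fold change was -3.19 (adjusted p = 0.135). With the 2 pools labelled female left out, 11 genes were higher in place of 17, and without library 2 the count of genes lower was 7 in place of 11.

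Gall bladder tuft cells had 8 genes higher than the other tissues, 13.6% of those tested against 12.7% of all genes, and 5 lower, 8.47% against 8.79%. DESeq2 called 15 lower. All 4 biliary markers were called higher, with sums of 477.4 to 639 CPM against at most 281.5 CPM in the other tuft tissues, among them Sox17 (61.24 to 76.68 CPM), and their part in the calls was not tested. Kcnn4 (chromosome 7, 24370263 to 24386690) was at 249.1, 192.8 and 498.4 CPM, and in no other tuft library above 73.6 CPM. Its step to colon, the next tissue, was 2.59 ± 0.73 (adjusted p = 0.0173). Kcnt2, a sodium-activated channel gene, was at 81.7, 12.2 and 20.4 CPM, against 0.037 to 2.81 CPM in thymus, the next tissue, a step of 5.12 ± 1.69 (adjusted p = 0.0279).

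Kcnh2, the erg channel gene of the cardiac repolarising current, was at 13.8, 29.2 and 90.8 CPM in gall bladder and 65.3, 7.82, 58.8 and 20.5 CPM in trachea. These 2 tissues were not told apart (0.19 ± 0.77, adjusted p = 0.914), and small intestine tuft lay lowest at 0.175 to 0.244 CPM. Kcna2 was called higher in gall bladder on library 1 alone, at 38.1 CPM against 0 and 0.052 CPM in libraries 3 and 4. Without that library its log2 fold change was -0.43 (adjusted p = 0.998). Kcnk3 (0 to 0.575 CPM) and Kcnj15 (0 to 0.988 CPM) were called lower there, and Kcnk3 lost its call without library 1 or 3 (adjusted p = 0.0582 and 0.0748), Kcnj15 without library 3 (adjusted p = 0.0553). Small intestine, next for Kcnj15 at a mean of 0.717 CPM, was not told apart from gall bladder (adjusted p = 0.923).

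Thymus tuft cells had 36 genes higher than the other tissues, 61.0% of those tested against 26.8% of all genes, and 4 lower, 6.78% against 5.64%. Of the 65 described genes, 16 reached 1 CPM in thymus alone and so had to be low elsewhere. The share higher is therefore a description. The genes called higher were 14 voltage-gated, 6 inward rectifier, 4 tandem-pore, 4 calcium- or sodium-activated and 8 auxiliary. Kcnj15, which encodes Kir4.2 (chromosome 16, 95257558 to 95300260), was at 280.7, 278, 292.5 and 404.8 CPM in thymus. In trachea, the next tissue, it was at 0.758, 5.80, 160.9 and 33.4 CPM, below every thymus library, but that step was not called (2.74 ± 1.06, adjusted p = 0.0583).

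Kcnip3, a calcium-binding auxiliary subunit of Kv4 channels (chromosome 2, 127456498 to 127522094), was at 98.9, 48.8, 65.0 and 85.5 CPM in thymus and at no more than 0.808 CPM in any other tuft library. Thymus differed from colon, the next tissue, by 7.65 ± 1.16 (adjusted p = 9.905e-05). Kcnh6 was at 49.5, 49.6, 42.2 and 20.9 CPM, and differed from gall bladder, the next tissue, by 4.58 ± 1.26 (adjusted p = 0.0109). Kcnh1, the ether-a-go-go channel gene, was at 10.1, 4.24, 48.6 and 11.9 CPM and Kcnj3 at 5.50, 3.13, 9.74 and 5.46 CPM, with no library of the other tuft tissues above 0.465 CPM for either. Lower in thymus were Kcnk1 and Kcne3 (3.10, 1.31, 0.959 and 1.23 CPM), the latter not told apart from trachea (adjusted p = 0.0826).

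Markers of thymic epithelium were also higher in thymus. Aire, the regulator of tissue-restricted genes in medullary thymic epithelium, was at 154.9 to 252.2 CPM in thymus and at no more than 5.62 CPM in any other tuft library. All 5 thymic epithelial markers and all 4 smooth muscle and pericyte markers were called higher in thymus. The summed thymic epithelial markers were at 1230 to 1430 CPM against 0 to 124.6 CPM in the other tuft tissues, and the smooth muscle and pericyte markers at 524.4 to 1110 against 0 to 10.5 CPM. Their part in the 36 calls was not tested.

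Colon tuft cells had 8 genes higher, 13.6% of those tested against 10.7% of all genes, and 8 lower, 13.6% against 5.78%. All 4 colonocyte markers were called higher in colon, with sums of 2171 to 3212 CPM against at most 246.9 CPM in the other tuft tissues, as were 4 of 5 proliferation markers (618.9 to 974.8 against at most 396.8 CPM). Their part in the calls was not tested. Kcne3 (chromosome 7, 100176502 to 100184869) was at 127.5, 117.4, 71.2 and 76.5 CPM, above every library of the other tuft tissues, with a step to small intestine of 2.85 ± 0.62 (adjusted p = 0.00515). Kcnk5 was at 105.4, 106.9, 109.3 and 103.7 CPM, and gall bladder, next at 47.9, 49.9 and 195.3 CPM, was not told apart from it (adjusted p = 0.904). Kcnf1 was at 10.2, 5.05, 5.69 and 2.73 CPM, and the step to small intestine was not called (2.81 ± 1.54, adjusted p = 0.321). Low in colon were Kcnq3 (0.875 to 2.00 CPM), Kcnj5 (0.202 to 0.393 CPM) and Kcnj2 (0.990 to 4.83 CPM). Kcnq3 was not told apart from gall bladder, the next tissue up (adjusted p = 0.303). Kcnj5 had means of 0.281 CPM in colon and 0.283 CPM in small intestine, which were not told apart. Kcnj2 overlapped gall bladder (2.04 to 8.31 CPM).

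Small intestine tuft cells had 5 genes higher than the other tuft tissues, 8.47% of those tested against 10.0% of all genes, and 6 lower, 10.2% against 7.45%. DESeq2 called 11 lower. All 6 enterocyte markers (sums of 19580 to 25140 against at most 937.8 CPM) and 7 of 8 enteroendocrine markers were called higher there, and their part in the calls was not tested. Kcnj16 at 17.5, 11.8 and 11.6 CPM had the highest mean there, with thymus next at 8.57, 3.50, 16.9 and 2.16 CPM and not told apart (0.67 ± 1.04, adjusted p = 0.696). Kcnk10, a mechanosensitive leak channel gene, was at 7.33, 16.4 and 11.3 CPM, and thymus, next, was not told apart (adjusted p = 0.371). Kcnk5 and Kcnk6 were called higher than the averaged level of the other tissues, with means of 43.4 and 8.34 CPM. Neither was highest there: colon was at 106.3 and 18.2 CPM, and trachea at 0.469 and 0.238 CPM. Both calls were lost without any 1 of the 3 small intestine libraries (adjusted p from 0.0512 to 0.126). The count of genes higher fell from 5 to 2 in each of these 3 cases.

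Known partners were followed in a list of 26 genes, of which 20 were tested in the small intestine and 24 among tuft tissues. In the small intestine 2 were higher in tuft cells, among them Amigo1 (24.4 ± 5.12 against 10.7 ± 2.39 CPM), and 3 lower, Dpp6, Lrrc26 and Slc12a2, of the 20 tested, against 13.0% and 13.9% of all genes. Lrrc26, the gamma subunit that lets BK channels open at rest, was at 2.48 to 3.20 against 64.0 to 74.2 CPM (log2 fold change -4.56 ± 0.18), and Kcnma1, the BK pore gene, at 0.269 to 0.496 against 2.96 to 4.25 CPM. Slc12a2, the basolateral chloride entry carrier, was at 62.4 ± 4.23 against 189 ± 23.6 CPM.

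Among tuft tissues 9 partners were called higher in thymus, 8 in trachea, 3 in colon, 2 in gall bladder and 0 in small intestine, against shares of all genes of 26.8%, 17.3%, 10.7%, 12.7% and 10.0%. Called lower, of the same 24, were 3 in thymus, 2 in trachea, 3 in colon, 6 in gall bladder and 4 in small intestine, against 5.64%, 13.7%, 5.78%, 8.79% and 7.45%. The Kv4 partners Dpp6 and Dpp10 were at 9.82 to 16.1 and 11.2 to 22.1 CPM in thymus. In trachea Dpp6 was at 25.6, 57.2, 1.70 and 18.04 CPM and Dpp10 at no more than 1.15 CPM. Atp12a, the non-gastric proton pump, was at 32.3 to 71.1 CPM in colon and at no more than 4.58 CPM in any other tuft library.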

How the data were processed

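The authors deposited 1 table of raw read counts per gene for each of 21 libraries. Libraries were made from poly(A) RNA with NuGEN Ovation V2 and Nextera XT, per the labels' protocols, with no molecular identifiers described. STAR, DESeq2 and the build GRCm38 are named in the submitters' processing notes. Of 43432 gene IDs, 42462 matched GENCODE M21 and the other 970 held 0.1164% of counts.

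Counts were scaled with TMM and tested with edgeR 4.0.16 (R 4.3.3), quasi-likelihood F test, filterByExpr and Benjamini-Hochberg adjustment over all genes. Small intestine tuft and non-tuft libraries were fitted alone (6 libraries, 16063 genes), and 18 tuft libraries together (19850 genes), each tissue against the unweighted mean of the other 4. Calls required a change of 1 or more on the log2 scale in either direction and an adjusted p below 0.05. The SE of a log2 fold change was derived as its absolute value divided by the square root of the F statistic. On simulated data, 40% of 2-fold and 100% of 4-fold changes were recovered in the small intestine fit of 15518 genes, and 4% and 46% in the trachea contrast of 19282 genes. These shares are not split by level, so they do not show how often changes in genes with few counts were recovered.

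The members and lists were chosen with earlier results of these data known. Genes were named by the largest called changes with a mean of at least 5 CPM (up to 8 each way in the small intestine without overlap, and 4 higher and 2 lower per tissue), the leading gene of each class, and genes at 10 CPM or more in all 5 tuft tissues, which gave 28 genes. Others were named to complete a class or complex. Alternatives were stricter and no filtering, DESeq2 size factors, DESeq2 1.42.0, no mitochondrial genes, a replicate block, all 21 libraries in 1 fit, male libraries only and leaving out each library. A few genes and 1 sequence are not reported here, but counts over genes include them.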

Additional observations from a re-analysis of the deposited data

Results flagged for a closer look

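In groups of 4 libraries, a value was picked out where its gap to the nearest other library was, as a share of the group's range, above Dixon's critical value. Of 55 groups tested, 5 were picked out, and chance alone picks out about 1 in 20. Kcnmb1 was at 43.88 CPM in trachea library 2 and at 0, 0 and 0.02809 CPM in the others. Kcnk1 was at 287.4 CPM in trachea library 3 against 154.3, 156.2 and 173.4 CPM. Kcnj15 was at 404.8 CPM in thymus library 4 against 278.0, 280.7 and 292.5 CPM. Kcnq1 was at 65.32 CPM in thymus library 2 against 37.51, 39.61 and 40.47 CPM. Kcne3 was at 3.096 CPM in thymus library 1 against 0.9589, 1.23 and 1.308 CPM.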

How the results depend on the processing

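For 43 results of single named genes, 287 of 294 values under other settings kept their direction and call, 7 lost the call and 0 reversed. Values were left out of this count where a setting did not test the gene or gave no adjusted p. Kcnj15 was such a case with DESeq2, in gall bladder (log2 fold change -4.649) and in thymus (7.122). The named genes were picked for their large calls in these same data. Leaving out 1 library kept 607 of 618, lost 9 and reversed 2. The reversed values were Kcna2 in gall bladder without its library 1 (-0.429, range -0.429 to 9.286) and Kcnmb1 in trachea without its library 2 (-3.186, range -3.186 to 7.36). With at least 5 CPM in 3 libraries, fewer Kcn genes were tested (17 in the small intestine, 36 among tuft tissues), and counts were 4 higher and 9 lower in small intestine tuft against non-tuft, 31 for any difference, 5 higher in colon, 21 higher in thymus and 7 lower in trachea. With all 21 libraries in 1 fit, 4 were higher and 9 lower in small intestine tuft against non-tuft. With male libraries only, 11 were higher in trachea. DESeq2 called 11 lower in small intestine and 15 lower in gall bladder. The cause of these shifts was not tested, and the shares of all genes called under these settings are not given. At 5 CPM in any group, 41 genes would be described. It was not settled whether replicate numbers pair the libraries. Of 32 same-number pairs among tuft tissues, 1 had a correlation over 0.1. The median was 0.0128, against -0.0028 for pairs of different numbers, and 9 of 18 libraries correlated best with their own number. With the replicate block, 11 genes were higher in trachea, and Kcna2 (4.473, adjusted p = 0.231) and Kcnmb1 (1.906, adjusted p = 0.609) lost their calls. Leaving out 1 library gave 7 to 8 higher and 17 to 22 lower in small intestine tuft against non-tuft, and 41 to 52 for any difference. Against the other tissues it gave 2 to 7 higher and 3 to 7 lower in small intestine (3 without its library 3), 6 to 9 and 5 to 8 in colon (5 without library 1, 2 or 3), 6 to 9 and 3 to 7 in gall bladder (3 without library 4), 27 to 42 and 3 to 4 in thymus, and 13 to 20 and 7 to 13 in trachea. Trachea libraries came from the fewest cells, and the spread behind their p-values was estimated from all 18 tuft libraries together. That precision covers counting error and spread between libraries only, and the trachea pools also differ in sex and age.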
